A study of Drosophila melanogaster with 18 samples.

Results

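Line R3, a Drosophila melanogaster cell line, was profiled on 9 arrays, and 6 of them fell into a pair and a set of 4 by their whole profiles. The pair was the arrays labelled P2 rep1 and P19, where P stands for the passage, the number of times a culture has been transferred to a new flask. The other set was the arrays labelled P2 rep2, P5, P6 and P7. The sets therefore crossed the labels: each label of passage 2 went to a different set, and an array of passage 19 lay beside one of passage 2. The labels were not corrected, and each array is called here by its label, with P2 rep1 and P19 as "the pair" and P2 rep2, P5, P6 and P7 as "the larger set". These 6 arrays were 6 of 18 in the series. The remaining 3 R3 arrays were labelled P8, P16 and P17, and the line R7 gave 9 more. The sets were chosen by the deposited intensities themselves, through the likeness of the whole profiles, so every difference between the pair and the larger set is given as a description, with no test. R7, whose arrays took no part in forming the sets, provided the tests.

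Both lines were grown in Schneider's medium with 10% fetal bovine serum and antibiotics in T flasks of 25 cm2, and total RNA was labelled with biotin for 3' expression arrays. R7 had 3 arrays of an early stage (P2 rep1, P2 rep2 and P3), 1 at P4, 2 of an intermediate stage (P7 and P8) and 3 of a late stage (P16, P17 and P19). P4 lay in the stated range of both early and intermediate and was kept apart. The labels give no treatment, genotype or transgene for either line; the study is known for lines made from embryos with an activated form of Ras, and that origin would be shared by all 18 arrays. The labels do not say that the arrays of a line came from separate cultures, so the p-values measure the spread between these arrays. That spread may be technical in part. It also holds differences between passages, since each R7 stage pools arrays of more than 1 passage.

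Primary cultures of fly embryos hold cells of many tissues, and a line forms when some of them keep dividing over many transfers. Haemocytes, the fly's blood cells, arise from the mesoderm under the factors Serpent and U-shaped, engulf debris through receptors such as Eater and the Nimrod proteins, and secrete basement membrane. Adult muscle precursors are mesodermal cells that keep the factor Twist, respond to Notch signalling and hold back muscle differentiation until metamorphosis. The Toll and Imd pathways switch on short secreted peptides that act against microbes, which are made above all by fat body and blood cells.

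The deposited values were intensities between 0.82 and 14634 over 18952 probe sets, and the array medians lay between 23.2 and 30.4. An intensity of 32 was passed by 44.8% to 48.5% of the probe sets on the 6 arrays once controls were set aside, and 9266 of 18769 were above it on 2 or more of them. Values below 32 were raised to 32 before the log2, so they carry no order, and a fold against a set that lay at this floor is a lower bound, written "at least". Of the genes, 7300 had a tested probe set that named them alone. The ratio of the 3' to the 5' control probe sets of GAPDH lay between 1.15 and 1.35 on the 9 R3 arrays and did not part the pair (1.27 and 1.20) from the larger set (1.24, 1.35, 1.20 and 1.34). That of actin overlapped too (2.14 and 1.82 against 2.03, 1.93, 1.66 and 2.29). The eIF4a ratio was mostly lower in the pair (2.18 and 1.82 against 2.60, 2.49, 2.14 and 3.18). The share above 32 was 47.2% and 48.5% in the pair and 44.8% to 45.4% in the larger set. The array medians were 27.4 and 29.7 in the pair and 23.8 to 25.3 in the larger set, and the counts with equal array medians stand beside those on the deposited scale. The hybridisation control cre read 7673 in P19 and 9124 to 10074 on the other 8 R3 arrays.

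The pair was alike to the extent seen among neighbouring passages. The spread of the log2 differences over the 9266 probe sets (SD) was 0.23 between P2 rep1 and P19, with 25 probe sets (0.27%) at least 2-fold apart. Within the larger set the SD lay between 0.24 and 0.37, and 52 to 247 probe sets were at least 2-fold apart. Between an array of the pair and an array of the larger set it lay between 0.64 and 0.71, with 664 to 853 probe sets (7.17% to 9.21%) at least 2-fold apart. The 8 distances between the sets did not overlap the 7 within them. The sets were formed by this same likeness, so this gap lends them no support. The R7 arrays P2 rep1 and P2 rep2, which share a passage and a line, had an SD of 0.15 and 2 probe sets at least 2-fold apart. The R3 arrays with those same labels lay 0.68 apart. R7 P3, of the same early stage, lay at 0.53 to 0.55 from the R7 arrays of P2, with 470 to 524 probe sets at least 2-fold apart.

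The nearest array of P2 rep1 was P19, and the next was P2 rep1 of the other line, R7, at an SD of 0.42. The nearest of P19 was P2 rep1, and the next was P2 rep2 of R7 at 0.43. The pair thus lay closer to the 3 early R7 arrays (0.42 to 0.47) than to any other R3 array (0.64 to 0.75). The larger set lay at 0.55 to 0.77 from the early R7 arrays, at 0.38 to 0.48 from the intermediate ones and at 0.43 to 0.60 from the late ones. The nearest array of P2 rep2 was R3 P6, at 0.31. The arrays P8, P16 and P17 of R3 lay at 0.33 to 0.48 from the larger set and at 0.71 to 0.75 from the pair.

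**Figure D1:**
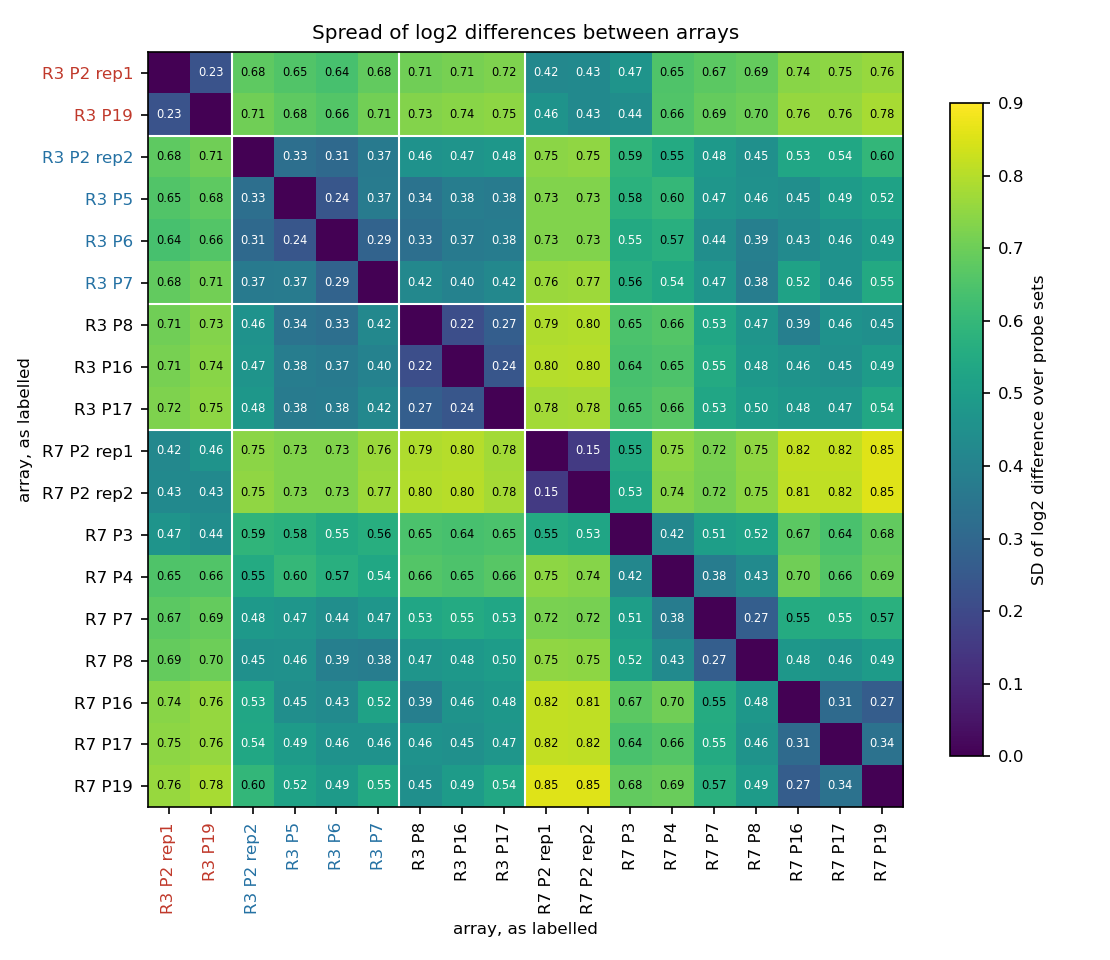
SD of the log2 difference (colour and printed value) over 9266 probe sets between each 2 of the 18 arrays, in the order of the pair (red labels), the larger set (blue labels), the other R3 arrays and R7. R3 P2 rep1 and P19 lie 0.23 apart, and both lie nearer to the early R7 arrays (0.42 to 0.47) than to the larger set (0.64 to 0.71).

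Over all 18769 probe sets other than controls, before any filter on low values, only 1, that of firl, was at least 2-fold higher on each of the other 7 R3 arrays than on every R7 array, and none was at least 2-fold lower. For firl the pair, at 40.8 and 38.2, lay in the range of R7 (25.2 to 304), while the larger set read 858, 1563, 1418 and 1058. firl was also among the probe sets lower in the pair, so this comparison is not independent of the sets.

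Of the 9266 probe sets, 415 (4.48%) were at least 2-fold higher in the pair than in the larger set with no overlap of arrays, and 242 (2.61%) were at least 2-fold lower. Together they made up 657 probe sets (7.09%), and a further 7 were at least 2-fold apart with overlap. At 4-fold or more the counts were 159 higher and 51 lower, and at 16-fold or more 26 higher and 2 lower. The differences were not symmetric in kind either: for 133 of the 415, all 4 arrays of the larger set lay at or below the floor, while for only 30 of the 242 did both arrays of the pair. A gap between the sets at any size was common, since 4177 probe sets (45.1%) had no overlap of arrays. Counted by gene, 337 of 7300 (4.62%) were higher in the pair and 184 (2.52%) lower. Of the 39 called genes with several tested probe sets, 5 had probe sets of opposite sign, and none was called both ways.

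The direction of the split depended on scaling. With the deposited scale, 63.2% of the 657 were higher in the pair and the median difference over all probe sets was -0.02 on the log2 scale. With equal array medians the counts were 328 higher and 341 lower (49.0% higher), and the median over all probe sets was -0.21. The 328 were all among the 415, and the 341 held all of the 242. Quantile normalization gave 393 higher and 267 lower. Just inside the 2-fold line on the higher side lay tsl (130.4 and 119 in the pair, 68.7, 51.97, 63.4 and 66.3 in the larger set), Pdp1 and Spn55B, with log2 differences that all round to 1.0; just outside lay CG11241, CG42238 and mael (735 and 577 against 279.7, 273, 334 and 441), which fell short of the line by less than the rounding. On the lower side rsh, Mvl and CG10559 lay just inside and PH4alphaEFB (1284 and 1127 against 2487, 2498, 2369 and 2232), CG1090 and CG42588 just outside.

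The largest differences were genes with a strong signal in the pair and none above the floor in the larger set. IM33, an immune-induced peptide, read 2043 and 2345 in the pair and 26.6, 14.4, 11.4 and 21.9 in the larger set, at least 68.4-fold higher. Hand, a basic helix-loop-helix factor of the heart and blood lineages, read 1698 and 1713 in the pair and 12.2, 13.3, 9.81 and 12.2 in the larger set, at least 53.3-fold higher. Both genes were well expressed on both arrays of the pair and below the floor on all 4 of the larger set. Hesr, a transcriptional repressor that responds to Notch, read 1123 and 1225 against 30.8, 18.8, 25.3 and 22.7, at least 36.7-fold higher. Among the 15 leading genes the pair read between 590.3 and 6913, and for 12 of them the larger set lay wholly at the floor. Their differences lay between 18.7-fold and at least 68.4-fold.

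The other leading genes included secreted proteins of the haemolymph and the cuticle. BomS2, a Bomanin peptide induced through Toll, read 848 and 884 in the pair and 8.85, 7.36, 8.66 and 8.82 in the larger set. Bbd, needed for Bomanin activity, read 858 and 934 and 80.3, 39.1, 37.01 and 21.7. These were groups with no overlap, and Bbd was above the floor on 3 of the 4 arrays of the larger set. The clotting protein fon (fondue) read 843 and 682 against 11.9, 12.9, 13.2 and 11.7, the odorant-binding protein gene Obp99c 904 and 794 against 11.6, 3.46, 15.3 and 8.88, and the cuticular protein gene Cpr49Ag 1487 and 1579.5 against 43.4, 52.01, 44.2 and 16.8. In contrast to most of the group, CG31676 stayed measurable in the larger set, with 6913 and 6765 in the pair and 463, 500.2, 345 and 224 in the larger set, 18.7-fold higher. The other 6 were CG34166, CG8157, CG1468, CG16713, CG15369 and CG16704, named here without a role. CG34166 read 1802 and 1745 in the pair and CG8157 read 1691 and 1668, and both were below the floor on all 4 arrays of the other set.

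Most genes lower in the pair were above the floor in both sets. firl was the most different, at 40.8 and 38.2 in the pair and 858, 1563, 1418 and 1058 in the larger set, 30.2-fold lower. CG33465 read 48.03 and 57.3 against 1504, 1419, 1389 and 1311, 26.8-fold lower. These were the only probe sets at least 16-fold lower. LKRSDH, an enzyme of lysine breakdown, read 66.5 and 63.4 against 666, 889.8, 708 and 688. The tetraspanin gene Tsp5D read 229.6 and 212 against 3142, 3067, 2405 and 1432, with P7 the lowest of the larger set. The cap-binding translation factor gene eIF4E3 read 77.7 and 83.4 against 613, 531, 999.7 and 1280.5. The neuropeptide precursor gene sNPF read 31.2 and 18.02 against 287, 247, 268 and 173, so that both arrays of the pair lay below the floor. Of the remaining leading genes, LManII (a lysosomal mannosidase), GlcAT-P (a glucuronyltransferase), cona (a protein of the synaptonemal complex) and Miox (an inositol oxygenase) were 5.40-fold to 5.93-fold lower in the pair.

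**Figure D2:**
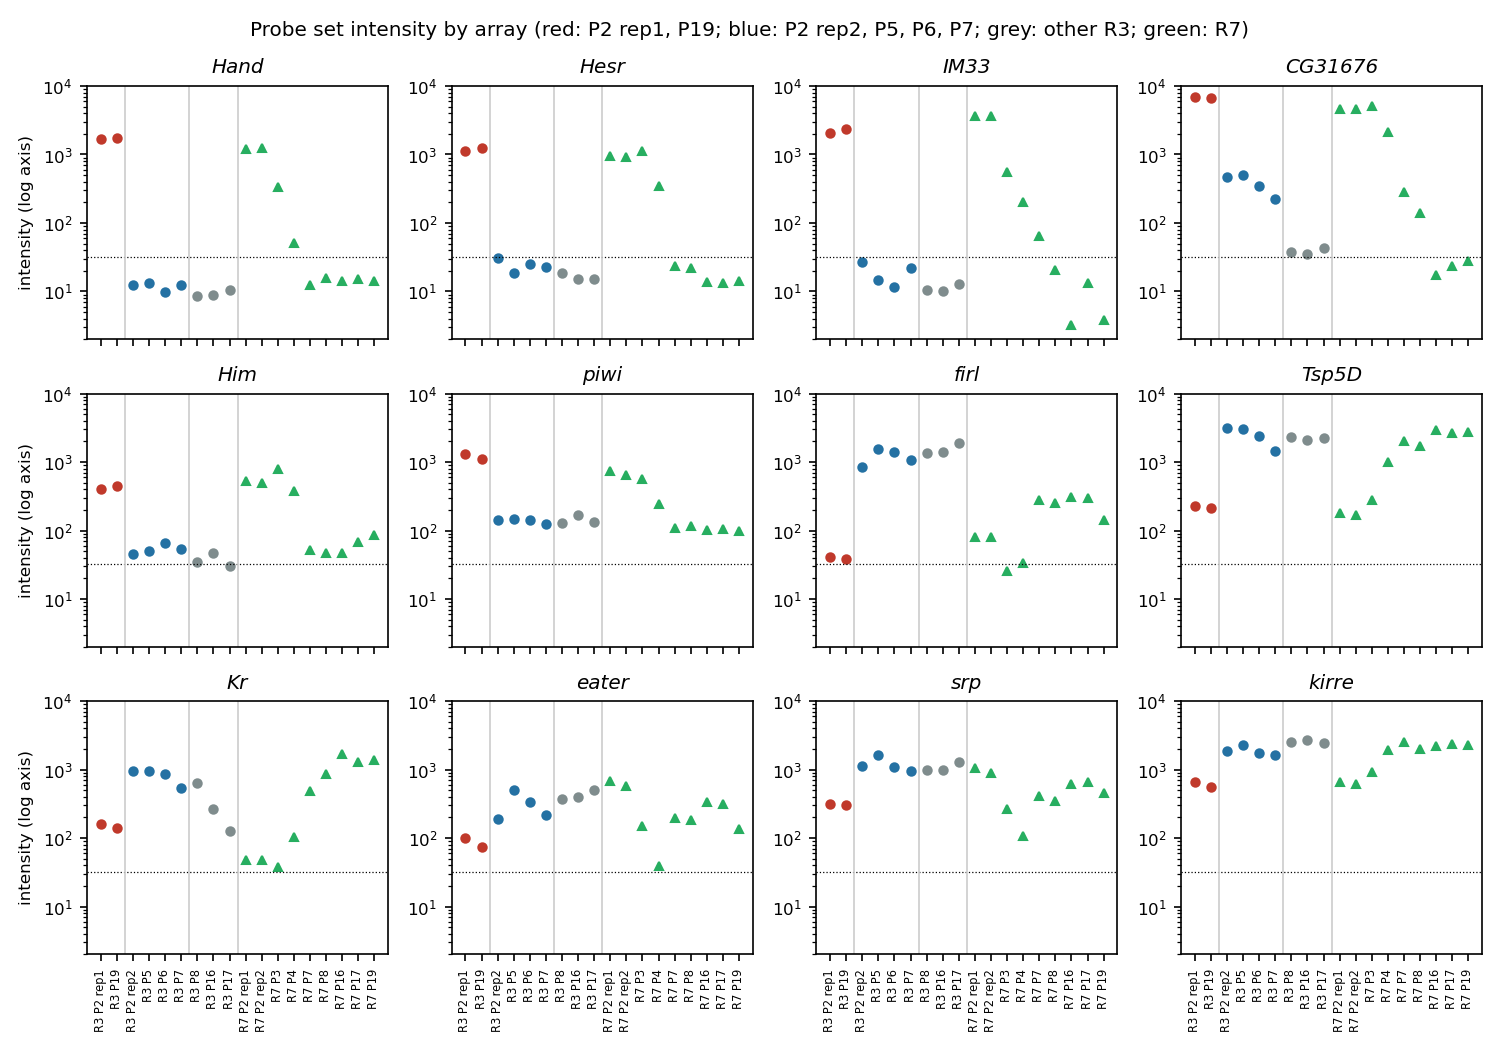
Deposited intensity (log axis) of 12 genes on each of the 18 arrays, with the pair in red, the larger set in blue, the other R3 arrays in grey and R7 as green triangles; the dotted line is the floor of 32. The first 6 genes, from Hand to piwi, are higher in the pair (Hand 1698 and 1713) than in the larger set, where CG31676 and piwi stay measurable. The last 6, from firl to kirre, are lower in the pair (firl 40.8 and 38.2) than in the larger set.

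Antimicrobial and related peptides were the list with the highest median. Of 8 genes tested, 6 were higher in the pair, none was lower, and the list median was 2.81 on the log2 scale against -0.02 over all genes; the share called over all genes was 4.62% higher and 2.52% lower, which is the background for each list here. All 8 had no overlap of arrays. Their summed intensity was 9467 and 9546 in the pair and between 544.9 and 1432 in the larger set. Drs (drosomycin, an antifungal peptide) stayed measurable throughout, at 5310.1 and 5014 in the pair and 1268, 415, 1201 and 798 in the larger set. Mtk (metchnikowin) read 529 and 525 against 22.6, 16.5, 35.3 and 24.5, and DptB (diptericin B) read 243 and 274 against 8.57, 6.05, 6.39 and 5.44. Of 19 Toll and Imd genes, a share near that over all genes was called, 1 higher and none lower, with 42.1% of the list without overlap against 46.5% of all genes. The 1 was SPE, the protease that processes the Toll ligand, at 76.2 and 76.1 against 3.76, 4.06, 5.00 and 2.20. The receptor gene Tl lay on the other side at 318 and 281 against 588, 1002, 576 and 359, short of 2-fold.

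Several haemocyte genes were lower in the pair. Of 14 plasmatocyte and general haemocyte markers, 5 were lower (2.52% over all genes), 1 was higher, and the median was -0.36. Their summed intensity was 12726 and 14942 in the pair and 17268 to 21597 in the larger set. The GATA factor gene srp read 316 and 304 in the pair and 1137, 1649, 1080.2 and 955 in the larger set, and ush, which encodes its partner, 212 and 169 against 614, 788, 609 and 594. The phagocytosis receptor genes eater (99.8 and 75.1 against 188, 505, 337 and 218) and Sr-CI (141 and 123 against 557, 641, 403 and 248) were also lower, with no overlap. Pxn, a matrix peroxidase, was the exception at 129 and 135 against 14.9, 36.6, 18.6 and 32.4. Hml, a widely used plasmatocyte marker, read 96.9 and 78.4 in the pair and 43.1, 71.3, 124 and 148 in the larger set, and the sets overlapped.

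Phagocytosis receptor genes were called in both directions. Of 14 genes, 5 were higher (4.62% over all genes) and 3 lower (2.52%) in the pair, with a median of 0.32, or 0.10 with equal array medians. The secreted Nimrods NimB3 (409 and 389.6 against 41.2, 67.5, 67.3 and 59.05) and NimB2 (312 and 245 against 108, 125, 105 and 86.6) were higher. The scavenger receptor gene Sr-CIV was just above the floor in the pair, at 84.5 and 68.1, and at or near the floor in the larger set (30.6, 32.1, 19.99 and 7.87). NimC1, a membrane receptor of plasmatocytes, differed by 1.21-fold, at 228 and 202 in the pair and 264, 234, 280.5 and 260.3 in the larger set. Among crystal cell markers, PPO1 and PPO2, the prophenoloxidases of these cells, varied within the larger set: PPO2 read 243 and 294 in the pair and 116, 168, 813 and 722 in P2 rep2, P5, P6 and P7. The lamellocyte marker atilla read 529.8 and 555 in the pair and 312, 349, 144 and 88.4 in the larger set, 1 called of 8 in its list.

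The transcription factors of heart and blood progenitors went both ways. Of 10 tested, 3 were higher in the pair (4.62% over all genes) and 3 lower (2.52%), and the median was -0.35. Of the list, 90% had no overlap of arrays, against 46.5% of all genes. Beside Hand, the factors kn (99.5 and 113 against 13.4, 17.3, 8.02 and 12.8) and Antp (94.1 and 81.8 against 11.99, 10.1, 5.40 and 13.2) were higher, with the larger set at the floor. The GATA factor gene pnr was lower at 319 and 318 against 1322, 1486, 1129 and 877, as were srp and ush. The T-box genes Doc1 and Doc2 were below the floor in the pair. Doc1 read 69.6, 58.8, 53.3 and 47.2 in the larger set and Doc2 69.1, 50.9, 49.9 and 34.7. By mean log2 they were at least 1.77-fold and at least 1.55-fold lower in the pair, short of the 2-fold line. A further 10 genes of the list were not tested, of which the 7 with a probe set did not pass 38.6 on these arrays.

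Muscle precursor genes were present in both sets, with several identity factors at different levels. twi, which encodes Twist, read 1038 and 963 in the pair and 1482, 1693, 1757 and 1361 in the larger set, and zfh1 read 1514 and 1427 against 1778, 1967, 1686 and 1787. Of 12 tested regulators, 5 were higher and 1 lower, with a median of 0.39. Him, an inhibitor of muscle differentiation downstream of Notch, read 408 and 440.3 against 44.7, 50.9, 65.2 and 54.1, 7.96-fold higher. The apterous gene ap (205 and 180.2 against 44.6, 54.9, 48.96 and 57.5) and slou (1527 and 1351 against 497, 461, 597 and 834), both muscle identity factors, were higher, and Kr was lower at 158 and 142 against 959, 954, 849.9 and 548. Sarcomere genes were measured in both sets, with Actn, which encodes alpha-actinin, at 1105 and 957 in the pair and 761, 797, 726 and 707 in the larger set and the muscle actin gene Act87E at 727 and 669 against 482, 562, 451 and 357. Of 15 tested, Mlc1 was higher (71.1 and 93.9 against 15.3, 16.9, 16.5 and 11.7) and bt lower (88.4 and 74.98 against 191, 121, 133 and 259.7), with a median of 0.21. Of 10 myoblast fusion genes, hbs was higher and kirre, which encodes a founder cell receptor, lower (666 and 559.9 against 1875, 2302, 1762 and 1615).

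**Figure D3:**
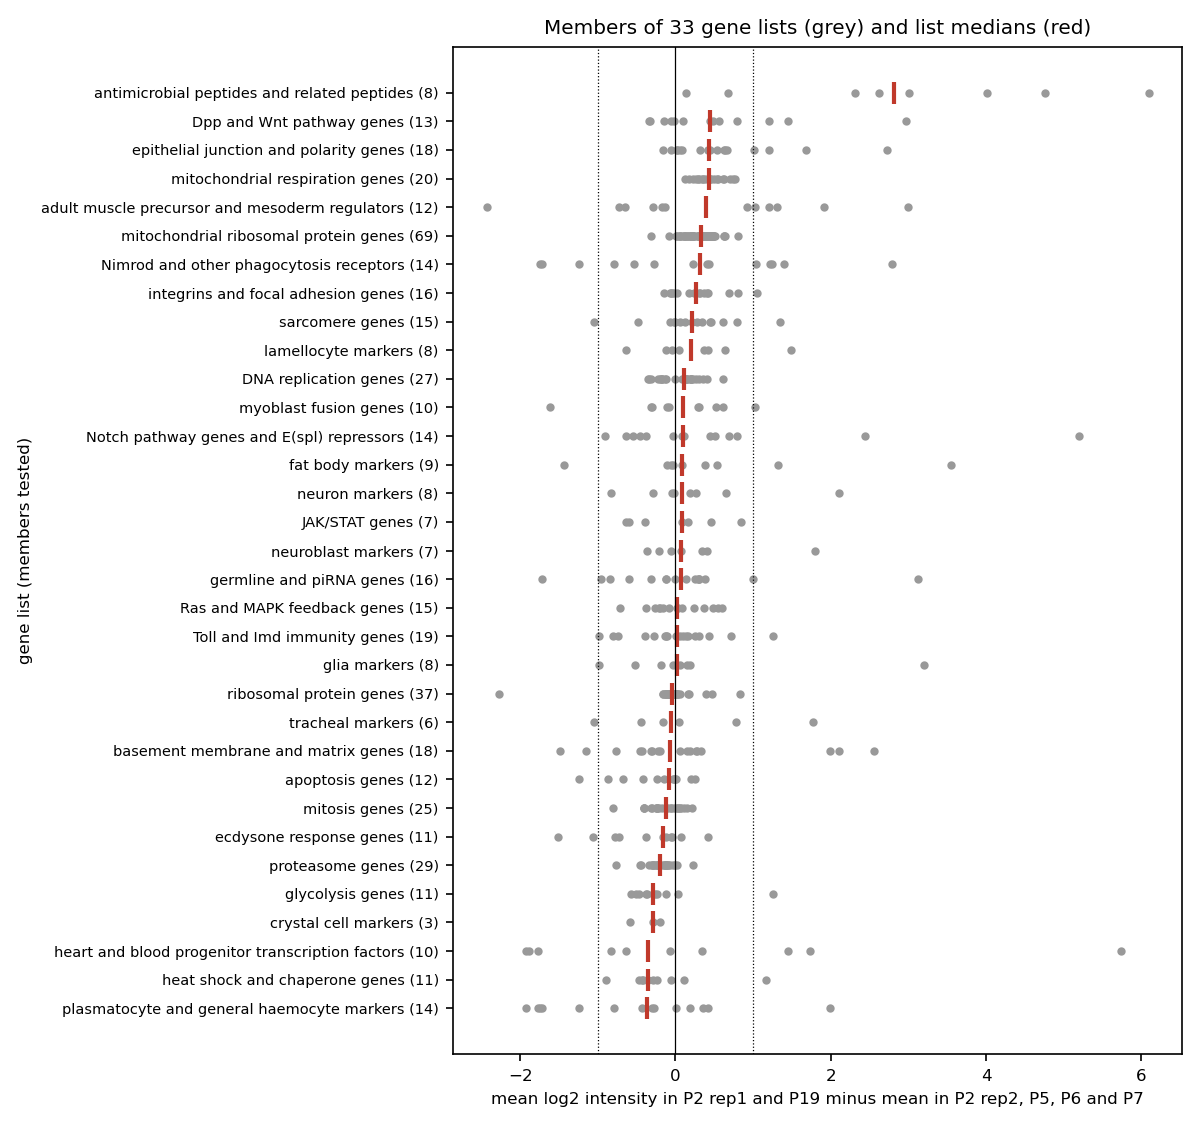
Difference of mean log2 intensity between the pair and the larger set for each tested member (grey) and the median (red) of 33 gene lists, with dotted lines at 2-fold. The antimicrobial and related peptides have the highest median (2.81), the plasmatocyte and general haemocyte markers the lowest (-0.36), and most list medians lie within 0.5 of 0.

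Of 18 epithelial junction and polarity genes, 4 were higher in the pair (4.62% over all genes) and none lower (2.52%). Of the 18, 16 lay above 0, as did 3454 of all 7300 genes, and the median was 0.43, or 0.22 with equal array medians. crb, which sets the apical side of epithelial cells, read 1227 and 1139 against 207, 159.7, 143 and 215, 6.61-fold higher. The adhesion gene ed (echinoid) read 668 and 730.1 against 241, 289, 203 and 156, and the septate junction gene sinu 1754 and 1658 against 664, 738, 715 and 855. Of 18 matrix genes, 3 were higher and 2 lower (median -0.07, which turned positive without P19 or without P7). Timp, an inhibitor of matrix metalloproteases, read 1254 and 1119.8 against 318, 304, 258 and 232, and Mmp2, one of its targets, lay the other way at 61.7 and 58.7 against 220.4, 187, 173 and 113. The perlecan gene trol read 2309 and 2006 against 5383, 5305, 4925 and 3721.

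Of the signalling lists, those of Notch and of Dpp and Wnt held genes higher in the pair and none lower. Of 14 Notch pathway genes, the E(spl) repressor gene E(spl)m3-HLH (1657 and 1621 against 212, 352, 397 and 280.3) and Hesr were higher, and the median, 0.10, turned negative with equal array medians and without P2 rep1. Of 13 Dpp and Wnt genes, 3 were higher, none lower, with a median of 0.44. The ligand gene Wnt6 read 278 and 226 against 23.9, 20.2, 10.6 and 12.5, and the feedback inhibitors nkd (of Wnt; 813 and 730.5 against 236, 266, 275 and 365) and Dad (of Dpp; 255 and 219 against 103, 96.7, 104 and 105) were higher too. No gene was called among 15 of Ras and MAPK feedback or 7 of JAK/STAT. Of 16 germline and piRNA genes, piwi was higher (1299 and 1108 against 141, 148, 141 and 123, 8.71-fold) and aub, its paralog, lower (91.3 and 85.4 against 425, 273, 236 and 264).

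Housekeeping genes differed little in size, but some lists lay almost wholly on 1 side. All 20 genes of mitochondrial respiration were above 0, with differences between 0.12 and 0.77 and a median of 0.43, and none reached 2-fold. Of 69 mitochondrial ribosomal protein genes, 67 were above 0, with a median of 0.32. With equal array medians these medians were 0.22 and 0.11. Genes with no overlap made up 90% and 78.3% of those lists, against 46.5% of all genes. Of 29 proteasome genes, 27 were below 0 (median -0.20), against 3846 of all 7300 genes. Mitosis genes leaned less to that side, with 17 of 25 below 0 (median -0.13). Genes with no overlap made up 51.7% of the proteasome list and 32% of the mitosis list. Those lower in the pair with no overlap made up 48.3% and 28%, against 22.8% of all genes. The DNA replication list had a median of 0.12, which turned to -0.09 with equal array medians. Cytosolic ribosomal protein genes had a median of -0.04, and 1 of 37 was called: RpS5b, a copy used in the germline, at 462 and 454 against 2562, 1814, 2131 and 2381; the sign of that list's median turned with quantile normalization and without P19.

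Markers of other cell types were called in small lists. Higher in the pair were 1 of 8 neuron, 1 of 8 glia, 1 of 7 neuroblast and 1 of 6 tracheal genes, and 2 of 9 of the fat body, against 4.62% over all genes. The first of these were Cadps (vesicle release; 509.6 and 461 against 154, 125, 85.6 and 97.1), alrm (an astrocyte gene; 341 and 253 against 9.78, 9.10, 10.6 and 10.5), insc (asymmetric division; 387 and 309.8 against 95.8, 77.8, 94.6 and 138) and serp (a chitin deacetylase; 113 and 106 against 22.1, 11.8, 15.5 and 14.3). The receptor gene btl of the tracheal list was lower, at 107 and 106 against 189, 221, 274 and 209. The glial factor gene repo lay at the floor in both sets (35.01 and 31.5 and 26.1, 32.03, 32.1 and 31.2), while the neuronal RNA-binding gene elav read 584 and 588 and 713, 587, 605 and 524. Of 9 fat body markers, apolpp (the lipoprotein of the haemolymph; 529.8 and 449.7 against 54.9, 50.1, 32.8 and 33.5) and Yp3 were higher and Apoltp was lower. Of those not tested in that list, the 4 with a probe set did not pass 18.9. Fewer cells of a type and less RNA per cell cannot be told apart in such bulk samples. In the other lists, the integrin gene Itgbn, the gluconeogenesis gene Pepck1 and the co-chaperone gene stv were higher in the pair, 1 of 16 integrin and adhesion genes, 1 of 11 glycolysis genes and 1 of 11 heat shock genes. Most glycolysis and heat shock genes lay the other way, short of 2-fold. In each of these lists 9 of 11 genes were below 0, against 3846 of all 7300. The medians were -0.284 for glycolysis and -0.358 for heat shock. The ecdysone response genes Eip93F and br (2 of 11) and the caspase gene Strica (1 of 12 apoptosis genes) were lower. Pepck1 read 1549 and 1386 against 1036, 346, 739.5 and 541, and Eip93F 85.5 and 65.7 against 231, 279.6, 174 and 185.

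Of the 25 probe sets at least 2-fold apart between P2 rep1 and P19, 18 were higher in P19 and 7 in P2 rep1, and only 2 of them were among the 657. The largest of those naming 1 gene were Trs33 (275 and 67.6 in P2 rep1 and P19), Hf (121 and 32.9), Cyp49a1 (53.2 and 146), CG17258, Cp110 and CG8543. The last 4 read higher in P19. Over all probe sets the median of P2 rep1 minus P19 was 0.09 on the log2 scale.

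Within the larger set, P2 rep2 read highest for most glycolysis and chaperone genes. It was the highest of the larger set for 9 of 11 glycolysis genes and 10 of 11 heat shock and chaperone genes. Other lists had P2 rep2 highest for many members too, such as 6 of 8 neuron markers and 9 of 16 integrin and focal adhesion genes. How often each array was the highest or lowest over all genes was not counted. Hex-A, which encodes hexokinase, read 1520 in P2 rep2 and 494 to 590.1 in P5, P6 and P7, with 580.5 and 421 in the pair. The GAPDH control probe set read 7214 in P2 rep2 and 3759 to 4832 on the other 8 R3 arrays. Haemocyte genes were instead highest in P5: 9 of 13 markers and 10 of 13 phagocytosis receptors above the floor there. eater, for example, read 188, 505, 337 and 218 in P2 rep2, P5, P6 and P7. Of the 242 probe sets lower in the pair, P7 was the lowest of the larger set in 118. Of the 282 higher in the pair with signal in any of the larger set, P2 rep2 was the highest in 111. The widest ranges were in genes outside the 657: CG16978 read 262, 51.8, 38.97 and 20.5 in P2 rep2, P5, P6 and P7, CG14968 and CG9411 were highest in P7 (769.5 and 444), and Sp212 was highest in P2 rep2 (384.8).

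R3 P8, P16 and P17, which formed neither set, lay nearer to the larger set than to the pair for most of the 657 probe sets. Of the 415 probe sets higher in the pair, 389 lay nearer to the mean of the larger set on P8, 382 on P16 and 373 on P17. Only 9, 10 and 13 reached the level of the pair there, and 279, 276 and 249 lay within the range of the larger set. These counts use floored values. For 133 of the 415 the larger set lay wholly at the floor, where a tied array counts as within its range and none can lie below. Of the 242 lower ones, 211, 212 and 213 lay nearer to the larger set. Only 111, 123 and 116 of them lay within its range, with 92, 70 and 60 below it and 39, 49 and 66 above. Hand read 8.69, 8.72 and 10.5 and Kr 635, 269 and 128 on these 3 arrays, so that Kr on P16 lay below the larger set and on P17 below the pair. All 3 lay below the larger set for 47 of the 415 and above it for 40. CG31676 was one that went lower, at 38.00, 35.1 and 43.4 against 224 to 500.2 in the larger set. The apterous gene ap was one that went past the pair, at 377, 542 and 546.

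On R7, which took no part in forming the sets, the probe sets that were higher in the pair were high early and low afterwards. Their median level, floored at 32, was 263 and 251 in the pair and 42.1 to 49.9 in the larger set. On R7 it was 343 and 328 in P2 rep1 and P2 rep2, 145 in P3, 88.3 in P4, 63.95 and 52.0 in P7 and P8, and 35.8, 39.2 and 32 in P16, P17 and P19. The 242 probe sets lower in the pair had medians of 102 and 94.8 in the pair, 289 to 367 in the larger set, 151 to 165 in the early R7 arrays and 219 to 282 from P7 on.

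**Figure D4:**
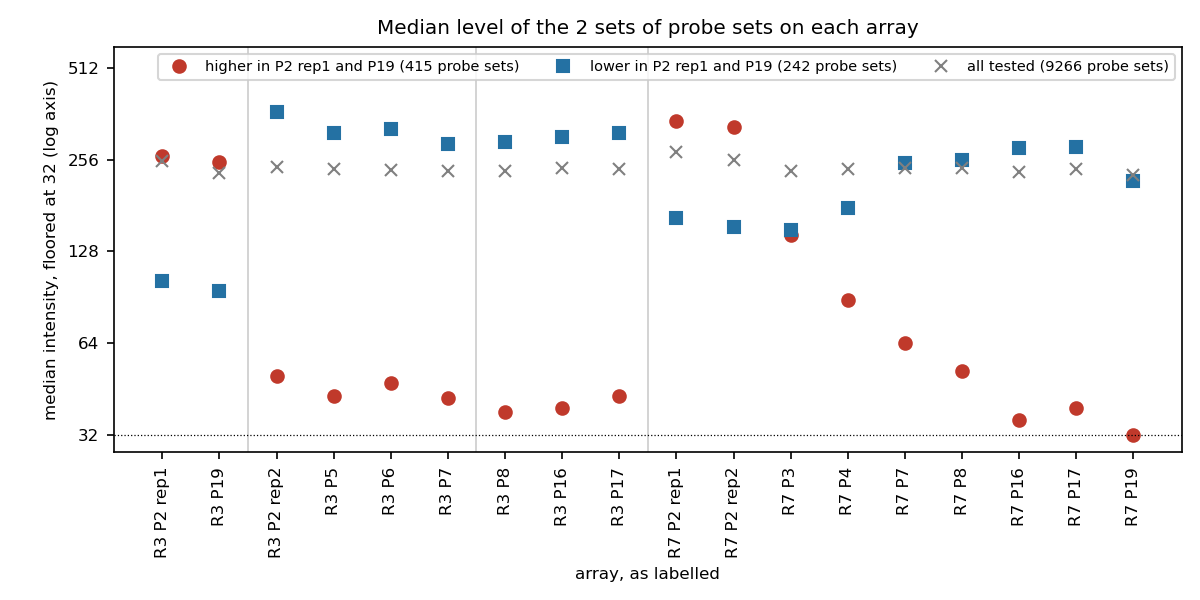
Median intensity (floored at 32, log axis) on each array of the 415 probe sets higher in the pair (red circles), the 242 lower (blue squares) and all 9266 tested (grey crosses). The higher set reads 263 and 251 in the pair and 343 and 328 in the R7 arrays of P2, and 32 to 49.9 in the larger set, R3 P8, P16 and P17 and the late R7 arrays.

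The R7 stages were compared with limma on log2 values over all 9266 probe sets, with Benjamini-Hochberg adjustment and a threshold of 0.05. From early to intermediate, 155 of the 415 probe sets higher in the pair fell (37.3%) and 5 rose, against 3.42% falling, 2.98% rising and 6.4% called either way over all probe sets. The median change of the 415 was -1.54 on the log2 scale, against 0 over all, and 395 of them were below 0. From early to late, 267 fell (64.3%) and 5 rose, against 12% falling, 11.4% rising and 23.3% either way over all, and the median was -1.88. Of the 242 probe sets lower in the pair, 73 rose to intermediate (30.2%) and 1 fell, with a median of 0.57. To late 86 rose (35.5%) and 14 fell, with a median of 0.43. Of the 242, 185 were above 0 at intermediate and 167 at late. The late and intermediate comparisons share the 3 early arrays.

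As shares of the R7 calls, the 155 were 48.9% of the 317 probe sets that fell to intermediate and the 73 were 26.4% of the 276 that rose. To late the shares were 24.1% of 1109 and 8.17% of 1053. The counts depended on single arrays. The 593 intermediate calls became 248 without R7 P2 rep1, 207 without P2 rep2, 1367 without P3, 203 without P7, 201 without P8 and 373 without P16. The 155 became 84, 84, 299, 72 and 68 without P2 rep1, P2 rep2, P3, P7 and P8, and the 73 became 38, 35, 31 and 32 without P2 rep1, P2 rep2, P7 and P8. The 2162 late calls became 1080 without P2 rep2 and 1202 without P19. With equal array medians 681 probe sets rose and 193 fell to intermediate, and 2278 rose and 596 fell to late; with quantile normalization the counts were 410 and 322, and 1785 and 929.

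Of the 15 higher in the pair, 11 fell to intermediate and 14 to late, and all 15 had that sign. Of the 15 lower, 7 rose to intermediate, 10 rose to late and 1 fell to late. Hesr read 936, 932 and 1108 on the early R7 arrays, 344 in P4, 23.4 and 22.2 in P7 and P8 and 13.6, 13.2 and 14.4 on the late ones. Every intermediate and late value of Hesr lay below the floor, so the changes to both stages are the same lower bound. To intermediate this was log2 change -4.95 ± 0.09 (SE), adjusted p = 2.2e-06. Values set to the floor have no spread, which makes this SE smaller. Hand read 1194, 1236 and 336, 51.2, 12.3 and 15.9 and 14.4, 15.2 and 14.2 in the same order. Its 2 arrays of P2 were high, P3 lower, and P7 onward below the floor. Hand fell to intermediate by log2 change -4.63 ± 0.54 (SE), adjusted p = 0.0065, a call that was lost without P7, without P8, with P4 counted as early and with all 18 arrays fitted in 7 groups. The last of these also ended the intermediate call of Hesr. BomS2 was below the floor from P3 on (1132, 1004 and 21.6 early), and neither comparison called it (log2 change -3.37 ± 1.48 (SE), adjusted p = 0.23 to intermediate).

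On the lower side the clearest R7 change was in Kr, at 47.8, 48.2 and 37.5 early, 103 in P4, 488 and 857 in P7 and P8 and 1709, 1296 and 1373 late. It rose by log2 change 3.87 ± 0.26 (SE), adjusted p = 0.00082 to intermediate, a call kept under each alternative run. Tsp5D rose from 182, 171 and 283 to 2047 and 1735 and 2942, 2699 and 2756 (log2 change 3.19 ± 0.22 (SE), adjusted p = 0.00082 to intermediate), a call lost with P4 counted as early and with all 18 arrays in 7 groups. firl rose from 79.3, 81.1 and 25.2 to 283 and 251 and 304, 301 and 144; it passed the threshold at late (log2 change 2.00 ± 0.45 (SE), adjusted p = 0.023), and not without R7 P16, without P17, with all 18 arrays, with P4 counted as intermediate or with no filter on low values. LKRSDH, in contrast, read 239.9, 229 and 72.4 early and 279, 226 and 154 late in R7, and neither comparison called it (log2 change 0.43 ± 0.49 (SE), adjusted p = 0.56 to late). Of the 5 haemocyte markers lower in the pair, Dscam1 rose to late (log2 change 0.96 ± 0.10 (SE), adjusted p = 0.002; not called with all 18 arrays), and srp, ush, eater and Sr-CI passed the threshold in neither comparison. srp read 1059.6, 895 and 269 on the early R7 arrays, so that R7 P2 was high where the pair was low.

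Of the genes with the smallest p among those that moved as the pair and the larger set differ, most were at or near the floor once they had fallen. Values set to the floor have no spread, so a small p at such a gene comes in part from the floor. unpg read 243 and 208 in the pair and 6.80, 17.2, 14.6 and 17.2 in the larger set, and 753, 636 and 716 early and 58.9 and 43.4 intermediate in R7 (log2 change -3.79 ± 0.14 (SE), adjusted p = 6.8e-05; not called with P4 counted as intermediate). caup read 136 and 99.02 against 8.86, 7.43, 4.89 and 5.00, and 168, 154 and 138 against 12.97 and 13.3 in R7 (log2 change -2.26 ± 0.09 (SE), adjusted p = 6.8e-05). Both are homeobox genes, and in both lines they were measured in the first set and at or near the floor in the second. Oseg5, a gene of transport within cilia, CG17104, CG14072 and CG4928 behaved alike, with intermediate changes between -4.0 and -2.66. Each lost its intermediate call with all 18 arrays, and all but CG4928 also with P4 counted as early. Esp, a sulfate transporter gene, continued to fall, from 122 and 112 in P7 and P8 to 31.2, 40.96 and 25.3 late (log2 change -4.38 ± 0.12 (SE), adjusted p = 1e-05). 

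A few genes went the opposite way in 1 or both R7 comparisons. stl, an extracellular protease-like gene higher in the pair (314 and 258 against 18.8, 24.1, 31.9 and 30.3), read 188, 132 and 242 early, 776 in P4 and 2112 and 1174 in P7 and P8, a rise of log2 change 3.12 ± 0.31 (SE), adjusted p = 0.0041, and then 25.6, 22.8 and 16.8 late. The rise was not called with P4 counted as early or with all 18 arrays. CG14565, Gasp and Dtg also rose to intermediate, by 0.91 to 2.59 on the log2 scale; without P2 rep1, P2 rep2, P7 or P8 none of these 3 kept its call. To late, Gasp and Dtg fell (log2 change -1.65 ± 0.19 (SE), adjusted p = 0.0022 and log2 change -1.73 ± 0.17 (SE), adjusted p = 0.0013), the direction of the difference between the sets, and CG14565 rose (log2 change 1.64 ± 0.46 (SE), adjusted p = 0.046). The late call of CG14565 was lost, among other runs, without P2 rep1, P2 rep2, P16, P17 or P19. The lipophorin receptor gene LpR1, lower in the pair (449 and 361 against 1672, 960.2, 968 and 676), fell in R7 from 1019, 854 and 548 to 235 and 288 and 57.8, 65.98 and 51.7 (log2 change -3.75 ± 0.24 (SE), adjusted p = 0.00031 to late). R3 P8, P16 and P17 read 135, 134 and 137 for it, far below both sets. NLaz, a lipocalin gene, had a like course, with 39.2 and 36.9 and 189, 93.8, 77.05 and 102 in the sets, 25.01, 21.6 and 25.4 in P8, P16 and P17, and log2 change -2.04 ± 0.18 (SE), adjusted p = 0.00096 to late in R7. Tsp68C, Pgant9 and Kal1, lower in the pair, also fell to late, and Agpat2, higher in the pair, rose. Before that, Pgant9 and Tsp68C rose to intermediate (log2 change 1.88 ± 0.24 (SE), adjusted p = 0.0084 and log2 change 1.24 ± 0.18 (SE), adjusted p = 0.015), as the sets differ. Both intermediate calls were lost with P4 counted as early and with all 18 arrays, and that of Tsp68C also without P2 rep2. The late calls of Tsp68C and Agpat2 were lost with all 18 arrays.

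**Figure D5:**
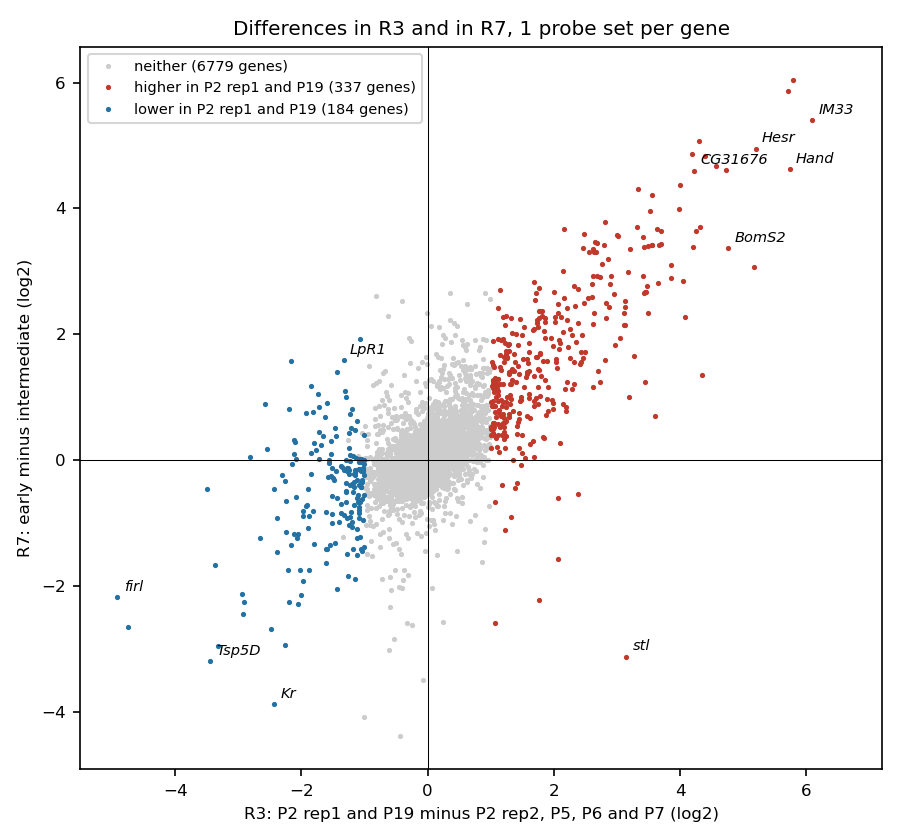
Difference between the pair and the larger set in R3 (horizontal axis, log2) against early minus intermediate in R7 (vertical axis, log2), 1 point per gene, with genes higher in the pair in red (337), lower in blue (184) and the others in grey (6779). Most red genes lie above 0 in R7, with stl far below, and the blue genes spread to both sides.

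By gene list, the R7 counts were these. Of the 8 antimicrobial and related peptides, 1 fell to intermediate and 2 to late, with medians of -3.07 and -2.30; the share falling over all genes was 3.73% and 12.8%, and the share rising 2.77% and 11.8%. Of 14 haemocyte markers, 5 fell to late and 1 rose, with a median of -0.74, while in R3 it was 5 of them that were lower in the pair. He, a haemocyte surface gene at 2153 and 2042 in the pair and 1816, 2336, 1567 and 918 in the larger set, read 2547, 2436 and 919 in early and 97.2, 74.01 and 61.6 in late R7 (log2 change -4.55 ± 0.44 (SE), adjusted p = 0.0014), and 125, 143 and 164 on R3 P8, P16 and P17. Of 18 junction genes, 3 fell to intermediate and 5 to late, and none rose. crb read 531, 517 and 497 early and 23.5, 37.8 and 50.5 late (log2 change -3.71 ± 0.16 (SE), adjusted p = 6.1e-05). Of the muscle precursor list, Him fell to intermediate (log2 change -3.57 ± 0.30 (SE), adjusted p = 0.002; not called with all 18 arrays or with P4 counted as intermediate) and slou to late (log2 change -4.34 ± 0.29 (SE), adjusted p = 0.00036). The mitochondrial respiration list, above 0 for all 20 genes in R3, had 1 gene falling to intermediate and a median of -0.11.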

How the data were processed

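The deposited table held 1 intensity per probe set and array on a linear scale, as the authors summarised it; the summarisation, scaling and software are not given in the sources used here, and no scanner files were used. RNA was extracted with an AllPrep kit and labelled with a 3' in vitro transcription kit, per the labels' protocols. Intensities were floored at 32 and taken to log2, with no further normalization. Non-control probe sets above 32 on 2 or more of the 6 R3 arrays were kept (9266 of 18769; 183 controls left out).

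Gene names came from the platform annotation, updated by Entrez number to RefSeq names for 13543 probe sets; of the non-control probe sets 13646 named 1 gene, 402 several and 4721 none. For a gene, the probe set with the highest mean over the 6 arrays stood for it. No genome or sequence was used, and the precision of each value is limited by the number of arrays.

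The pair minus the larger set was computed as a difference of mean log2 with no test; "called" in R3 means at least 2-fold apart with no overlap of arrays. R7 stages were compared with limma 3.58.1 (lmFit and eBayes, 4 groups, 9 arrays, 5 residual degrees of freedom) in R 4.3.3, two-sided, with Benjamini-Hochberg adjustment over 9266 probe sets and a threshold of 0.05; the fit was tested on simulated data. Genes were named by rule: the 15 largest differences each way, up to 5 members of each of 33 lists, cell type markers, the 6 widest gaps within each set, the 8 smallest p in each R7 comparison, up to 6 called the opposite way in R7, and 3 on either side of the 2-fold line. The members and the lists were chosen with earlier results of these data known, so none is independent support. Alternatives were other floors, scalings, filters, groupings of P4, an intensity trend, all 18 arrays in 7 groups, and leaving out each array; 2 were added after seeing the data (leaving out P2 rep2 and P19 together, and leaving out probe sets at the floor on all R7 arrays).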

Additional observations from a re-analysis of the deposited data

Results flagged for a closer look

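Within the larger set, 14 of 267 named genes had 1 array set apart from the nearest of the other 3. As a share of the whole range, on floored log2 values, the gap passed Dixon's 95% critical value. For untied values chance gives this in about 1 in 20 groups, a rate that does not hold where the floor ties values. P2 rep2 stood apart for CG43897 (232.81, against 11.6 to 20.4), Hex-A (1519.52, against 494 to 590.1), Gp93 (1291.28, against 960.0 to 1002), Treh (728.99, against 460 to 483), Oseg5 (36.92, against 20.7 to 28.1) and Fbp2 (34.22, against 17.4 to 23.7). P5 stood apart for cher (1213, against 862 to 895), ush (787.51, against 594 to 614), Pxn (36.58, against 14.9 to 32.4), Mlc2 (35.22, against 20.5 to 32.3) and Sr-CIV (32.09, against 7.87 to 30.6). P6 stood apart for Mtk (35.32) and cas (33.39), and P7 was low for hbs (31.71, against 54.9 to 61.0). The values near 32 differ from the others by little more than the floor sets. For CG43897, Oseg5, Fbp2, Sr-CIV, Mtk and cas the other 3 arrays were all set to 32, so any array above the floor passes by construction.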

How the results depend on the processing

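Of 157 values that answer a comparison, recomputed under the alternatives, 122 stayed within 1.5 times (counts) or the spread between arrays, and 35 moved. These values are counts and spreads without a sign, so none could reverse. The larger side of a split did turn with equal array medians. In R3 415 higher and 242 lower became 328 and 341. In R7 276 rising and 317 falling to intermediate became 681 and 193. Of 330 list medians 50 moved and 32 had the other sign, and of 1068 values of named genes 288 moved and 28 had the other sign.

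In R3, a 4-fold line left 159 higher and 51 lower probe sets, and leaving out 1 array gave 407 to 447 higher and 227 to 291 lower. Leaving out the arrays P2 rep2 and P19 together gave 446 higher and 212 lower. The SD between P2 rep1 and P19 was 0.18 at a floor of 64, and the median SD between the sets, 0.68, was 0.78 at a floor of 16 and 0.56 at a floor of 64.

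In R7, the 73 probe sets called higher at intermediate were 45 at a floor of 64 and 44 with 1 probe set per gene. With no filter on low values, the counts were 293 intermediate calls, 80 and 34 of the R3 sets, and 1220 late calls. With P4 counted as early they were 82, 45 and 11. With all 18 arrays in 7 label groups they were 137, 11 and 5, and 39 of the lower set at late; there the R3 early and late groups each hold an array of the pair beside others, so their spread contains the difference between the sets. Leaving out 1 R7 array gave 201 to 1367 intermediate calls, 68 to 299 of the 415 and 31 to 94 of the 242, and at late 1080 to 2465 calls, 194 to 349 of the 415 and 63 to 95 of the 242. Where P7 or P8 was left out, the lone intermediate array was assumed to vary like the other groups. No paired analysis was possible because the labels number replicates only at P2 of each line, so the compared stages share no replicate numbers. Signal near background limits the probe sets at the floor, whose changes are lower bounds and whose spread within a stage is understated.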
